A study of Mus musculus with 8 samples.

Results

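The cytosolic ribosomal proteins were taken as every gene whose array symbol begins with Rpl or Rps followed by a digit, a, p or x, together with Rpsa and Fau. Symbols containing -ps, the Rps6k kinases and paralogs whose name ends in l, or in l plus a digit, were left out. The rule found 61 of the 19321 genes with a symbol on the array. Of these, 60 encode ribosomal proteins, 35 of the large subunit and 25 of the small subunit, and all 60 were above background on all 8 arrays and were tested. Rps19bp1 met the letters of the rule but encodes a protein that binds Rps19, and it was kept out of every count below. Rpl9 and Rps28 had a pair of probes each, and the brighter probe stood for the gene. Rplp0, Rplp1, Rplp2, Rps27a and Rack1 were not analysed here.

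RNA came from the dorsal dentate gyrus of male C57BL/6J mice aged 8 to 12 weeks. The comparison was between 4 samples of wild-type mice (WT) and 4 samples of knockout mice without Cav3.1 (Cav3.1 KO), the T-type calcium channel pore encoded by Cacna1g. Each sample was labelled with Cy5 and hybridised alone to a TORAY array. The labels speak of brain slices and do not name an animal for each array, nor the cells in which the channel was lost. The spread that the p-values measure is thus that between samples, and it may be technical. Levels are given as normalised log2 spot intensities, and a negative difference means a lower level in Cav3.1 KO. A gene passed the test if its limma p, adjusted by the Benjamini-Hochberg method over 21150 probes, was under 0.05.

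Each ribosome is built from a large subunit, which joins amino acids, and a small subunit, which reads the mRNA. Most of the protein subunits are made in equal numbers, and their mRNAs are among the most abundant in neurons and glia alike. Many of these mRNAs begin with a 5′ terminal oligopyrimidine (TOP) tract, a run of C and U through which mTORC1 signalling and the binding protein Larp1 regulate their translation and stability together.

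The start of transcription, near which the tract is encoded, is shown for 7 members. They were chosen, after the values were seen, to show long and short runs and genes described below. RefSeq promoters (GRCm38.p6) were given for 47 of the 60 genes, some with several starts, 55 promoters in all. Each line holds the 50 bases before the start and the 20 bases from it, 5′ to 3′, and capitals mark the longest unbroken run of C and T of at least 8 bases within 25 bases of the start.
Rpl7a, chr2:26910757-26910826, plus strand: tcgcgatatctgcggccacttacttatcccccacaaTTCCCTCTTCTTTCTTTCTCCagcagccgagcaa
Rpl27a, chr7:109519145-109519214, plus strand: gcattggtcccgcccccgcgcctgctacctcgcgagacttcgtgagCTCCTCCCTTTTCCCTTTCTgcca
Rpl35, chr2:39005112-39005181, minus strand: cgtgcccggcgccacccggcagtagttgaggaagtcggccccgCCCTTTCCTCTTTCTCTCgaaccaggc
Rps18, chr17:33955646-33955715, minus strand: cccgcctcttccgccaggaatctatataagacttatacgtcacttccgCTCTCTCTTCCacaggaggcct
Fau, chr19:6057897-6057966, plus strand: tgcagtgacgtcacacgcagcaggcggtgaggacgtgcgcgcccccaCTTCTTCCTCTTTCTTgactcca
Rps4x, chrX:102189372-102189441, minus strand: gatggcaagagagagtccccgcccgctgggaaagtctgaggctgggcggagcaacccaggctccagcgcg
Rpl23, chr11:97782420-97782489, minus strand: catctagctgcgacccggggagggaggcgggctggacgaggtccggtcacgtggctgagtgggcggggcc
The run was 21 bases long in Rpl7a, 20 in Rpl27a, 18 in Rpl35, 16 in Fau and 11 in Rps18, and none of at least 8 was found in these windows of Rps4x and Rpl23. Of the 55 member promoters, 47.3% held such a run on the sense strand, against 19.7% of all 32851 promoters in the table. The letters CCGGAAG, which fit factors of the ETS family, were found on either strand in 40.0% of the 300-base member promoters and in 8.86% of all promoters. AAGATGGC, which fits the factor YY1, was found in 9.09% and 2.75%, and TATAAA, the TATA box, in 9.09% and 13.6%. CCGGAAG and AAGATGGC can share 3 bases, and 0 of the member promoters held both. A match is a description of the letters in the window.

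Brightness before normalisation differed between arrays. Blank spots averaged 53.0 to 63.4, the median probe was at 80.9 to 94.3, and 85.4% to 93.0% of probes were detected. WT replicate 2 had the largest share detected, with blank spots at 53.6 and the median probe at 87.4. On Cav3.1 KO replicate 1 these were 56.2 and 80.9. The Cacna1g probe gave 6.43, 6.61, 6.53 and 6.61 in WT and 6.55, 6.43, 6.39 and 6.48 in Cav3.1 KO. The groups overlapped, and the difference of -0.08 (SE 0.0508) had a limma adjusted p of 0.816, with the place of the probe relative to the deleted part not stated in these sources. The probe therefore does not check the genotype labels. All 12 markers of mature granule neurons were detected, and their mean level was 6.94 to 7.01 over the WT arrays and 6.82 to 6.95 over the Cav3.1 KO arrays.

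WT replicate 2 stood apart from the other arrays in these genes. Each gene was expressed as its deviation from its own mean over the 8 arrays, and the median over the 60 genes was 0.102, -0.211, 0.101 and 0.0791 on WT replicates 1 to 4. On Cav3.1 KO replicates 1 to 4 it was 0.0102, -0.0291, -0.0125 and -0.0605. WT replicates 1, 3 and 4 were thus above all Cav3.1 KO arrays and WT replicate 2 below all of them. WT replicate 2 was the lowest WT array for 55 of the 60 genes (91.7%, against 32.6% of all probes tested) and the lowest of all 8 arrays for 35 of them (58.3%, against 17.5% of all probes). Among probes of all genes with a mean spot intensity above 1000, where 42 of the 60 members lay, WT replicate 2 was the lowest of 8 for 26.1%. The exceptions among WT arrays were Rps3, Rpl15, Rps20, Rpl3 and Rpl28. These arrays and genes were singled out after their values were seen.

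**Figure D1:**
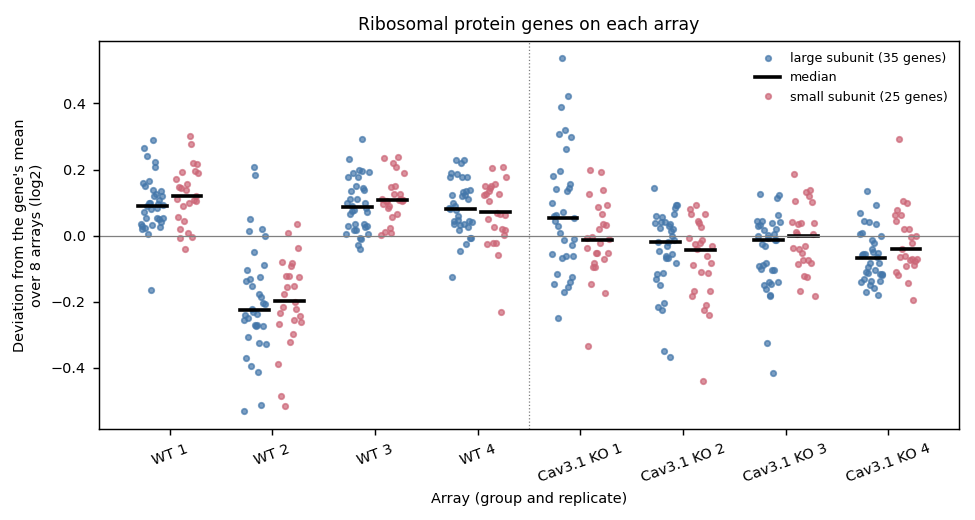
Deviation of each ribosomal protein gene from its own mean over the 8 arrays (log2, vertical axis) on each array (horizontal axis), with large subunit genes in blue, small subunit genes in red, 1 point per gene and a bar at the median. The medians of WT replicate 2, -0.225 for the large and -0.198 for the small subunit, are the lowest, and those of the other WT arrays are the highest of their subunit.

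Both subunits showed this order of arrays. The large subunit median was 0.0904, -0.225, 0.086 and 0.0803 on the WT arrays and 0.0545, -0.0177, -0.0141 and -0.0679 on the Cav3.1 KO arrays. The small subunit median was 0.121, -0.198, 0.109 and 0.0704 on the WT arrays and -0.0127, -0.0438, -8.6e-05 and -0.0393 on the Cav3.1 KO arrays. Cav3.1 KO replicate 1 was the highest of its group for the large subunit, while Cav3.1 KO replicate 3 was the highest for the small subunit.

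The gap on WT replicate 2 differed widely between genes. Set against the mean of the other WT arrays, its median over the 60 genes was -0.295, and over all probes tested it was -0.00157. Rps18, a protein of the head of the small subunit, had the largest gap, at 13.43, 12.72, 13.32 and 13.38 on the WT arrays. Its Cav3.1 KO arrays lay between 13.14 and 13.33. Gaps of -0.65 in Rpl39, a short protein lining the exit tunnel, -0.63 in Rpl10a, -0.60 in Rps14 and -0.56 in Rpl35 followed. Rpl3, which lies close to the peptidyl transferase centre, ran the other way, at 12.65, 12.80, 12.59 and 12.57, and Rpl28 was 0.25 higher on WT replicate 2 than on the other WT arrays. Rps18, Rpl39, Rpl10a, Rpl35 and Rpl3 were named after their values were seen. The median gap was -0.333 over the 25 genes with a pyrimidine run in at least 1 promoter and -0.295 over the 22 genes without. The gaps overlapped, from -0.657 to 0.25 with a run and from -0.457 to -0.04 without. Over the 13 genes with no promoter given the median was -0.223. Whether the mRNAs of these genes begin with a TOP tract was not tested.

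The low array recurred under other treatments of the intensities. The median deviation of the 60 genes on WT replicate 2 was -0.282 when arrays were scaled to a common median and -0.238 after subtraction of the blank spots. In the deposited value table it was -0.241, but there Cav3.1 KO replicate 4 was as low, at -0.249, while all probes had medians of 0.110 on WT replicate 2 and -0.145 on Cav3.1 KO replicate 4.

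Other transcripts moved with WT replicate 2 to different degrees. The 29 tested probes named for ribosomal protein pseudogenes were lowest of 8 there in 62.1%, with a median gap of -0.236. Probes for these genes may detect near-identical copies, so the values of a gene and its processed pseudogenes cannot be told apart. The 2 small nucleolar RNA host genes on the array, Gas5 and Snhg5, which are also TOP transcripts, gave 8.60 and 7.94 on WT replicate 2 against 8.74 to 9.28 and 8.47 to 8.52 on the other WT arrays. The mean of these 2 host genes was 8.35 on Cav3.1 KO replicate 4, nearly as low as the 8.27 on WT replicate 2. The 19 translation factors and other TOP transcripts had a smaller median gap of -0.0633, and 6 of them were lowest of 8 on WT replicate 2. Among these, Tpt1 (12.42, 12.04, 12.63 and 12.64 on the WT arrays) and Naca (11.71, 11.20, 11.56 and 11.61) were low, whereas the elongation factor Eef1a1 (14.56, 14.65, 14.56 and 14.65) was not. These 3 genes were chosen after their values were seen. The gap was -0.0566 over 78 mitochondrial ribosomal protein genes and 0.0021 over 29 ribosome biogenesis genes. Choroid plexus markers were highest on this array, with a list mean of 8.55 against 7.03 to 8.19 on the other WT arrays. All 8 of them were highest of the 8 arrays there, and their list mean was 6.23 to 8.34 on the Cav3.1 KO arrays. The list mean was nearly as high, 8.34, on Cav3.1 KO replicate 2, where the ribosomal protein median was -0.0291. The part of choroid plexus tissue in the low ribosomal protein values was not tested.

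**Figure D2:**
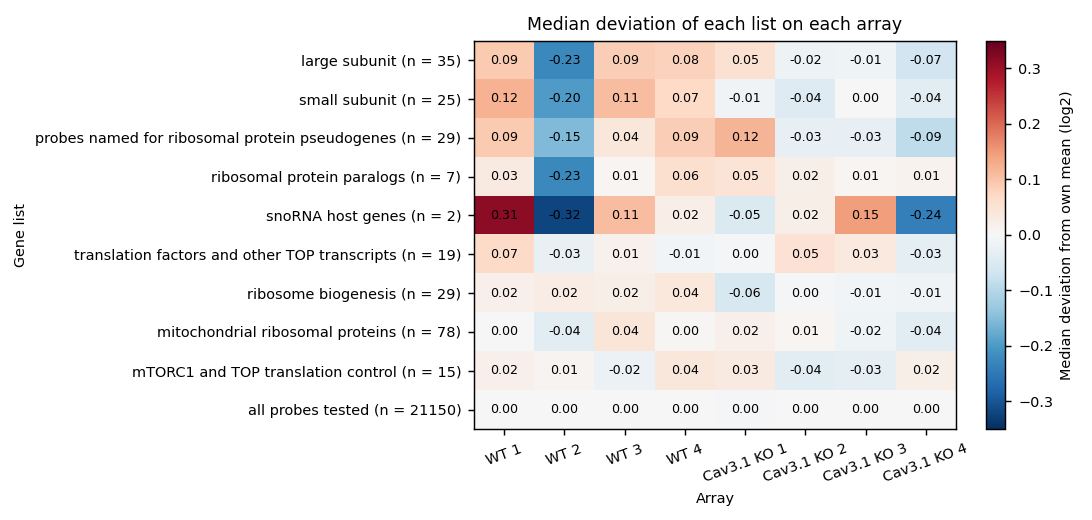
Median deviation from each probe's own mean over 8 arrays (log2, colour and printed value) for 10 lists (rows) on each array (columns). WT replicate 2 is low for the large and small subunit, the pseudogene-named probes, the paralogs and the snoRNA hosts, while the mitochondrial ribosomal proteins and ribosome biogenesis genes have medians between -0.0571 and 0.0416.

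Between the groups, no ribosomal protein gene passed the test with all 8 arrays, and the values leaned slightly lower in Cav3.1 KO. Of 60 genes, 0 were called by limma at an adjusted p under 0.05, beside 0.288% of all probes (61 of 21150) and 0.0898% called lower. The Cav3.1 KO mean was lower for 44 genes and higher for 16, with a median difference of -0.05, beside 50.7% of all probes lower and a median of -0.000775. In the large subunit 25 of 35 genes were lower (median -0.04), and in the small subunit 19 of 25 (median -0.05). An unadjusted p under 0.05 was reached by 6 genes, all lower, where 8.1% of all probes reached that level and 4.34% were lower. In bulk tissue, fewer cells of a type and less RNA per cell cannot be told apart.

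The split of directions depended on the scaling between arrays. Lower in Cav3.1 KO were 54 of 60 genes with arrays scaled to a common median (median -0.107), beside 49.5% of all probes. In the deposited value table it was 57 of 60 (median -0.143), beside 66.3% of all probes, whose median was -0.0629. No gene passed the test under either. Bright probes of all genes, above 1000 in mean spot intensity, shifted with these scalings too. With median scaling their median deviation was -0.0488 to 0.109 on the WT arrays and -0.126 to 0.00159 on the Cav3.1 KO arrays. In the value table it was -0.0238 to 0.139 and -0.159 to 0.014. How much of the members' shift goes with brightness was not tested. The 42 genes above 1000 in mean spot intensity had a median of -0.0229 with 27 lower, and the 18 dimmer genes a median of -0.0893 with 17 lower. None of the 1155 probes of any gene above 1000 in mean spot intensity was called.

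**Figure D3:**
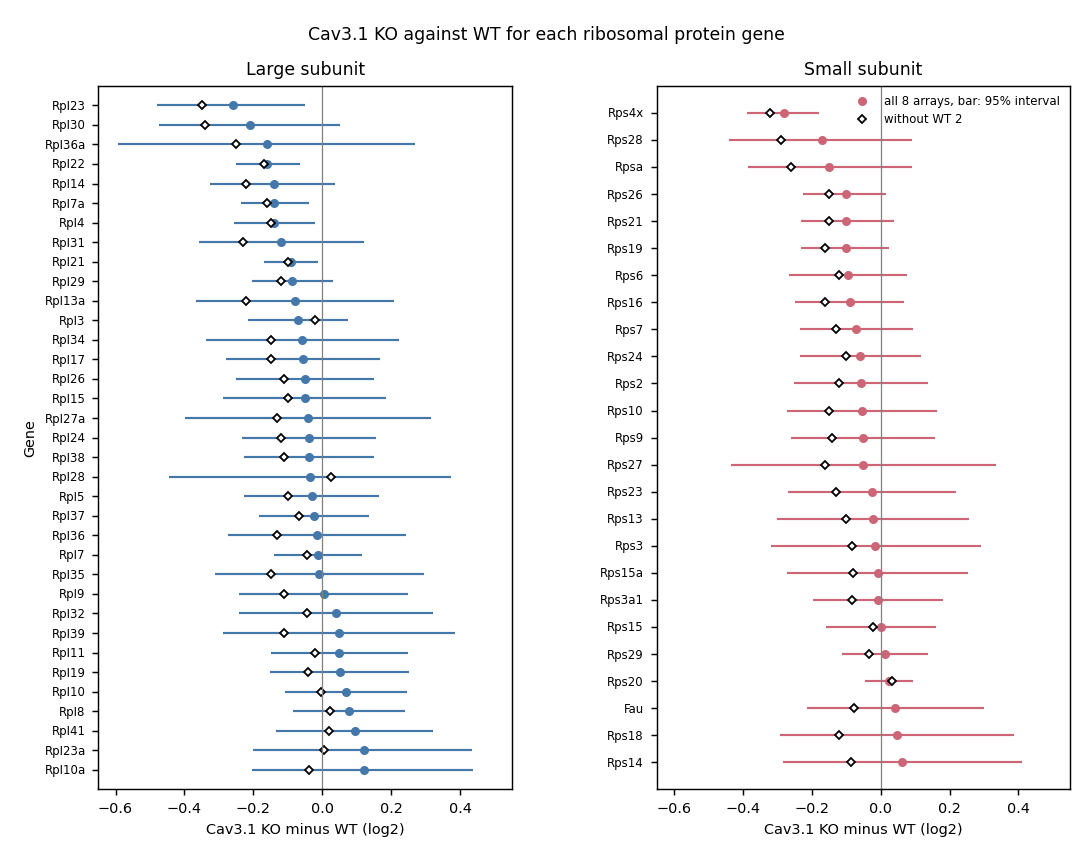
Difference Cav3.1 KO minus WT (log2, horizontal axis) for each gene (vertical axis) of the large (left) and small (right) subunit: filled points use all 8 arrays with bars for the 95% interval, and open diamonds leave out WT replicate 2. With all 8 arrays 44 of 60 points lie below 0, and without WT replicate 2 it is 55.

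Leaving out WT replicate 2 moved the comparison. Lower in Cav3.1 KO were then 55 of the 60 genes (50.7% of all probes), with a median of -0.117, 31 of 35 in the large and 24 of 25 in the small subunit. Then 2 genes passed, both lower, beside 0.232% of all probes called in either direction (49 of 21150) and 0.0898% called lower. These were Rps4x (limma adjusted p 0.0389) and Rpl30 (limma adjusted p 0.0468). An unadjusted limma p under 0.05 was reached by 20 genes, all lower, where 9.98% of all probes reached that level and 5.46% were lower. The groups did not overlap for 17 genes, all lower (5.39% of all probes lower and 4.68% higher). The choice of this array for omission was made on these same values, so the larger counts are a description. The spread within WT shrank with it: the median SD over the 60 genes was 0.158 in WT, 0.0978 in Cav3.1 KO and 0.0509 in WT without replicate 2, beside 0.0599, 0.0642 and 0.0459 over all probes. Among probes above 1000 in mean spot intensity, the same SDs were 0.173, 0.103 and 0.0551 for the 42 members and 0.131, 0.132 and 0.0741 for all genes. Above this floor the members' spread was thus the larger in WT, and the smaller in Cav3.1 KO and in WT without replicate 2. The 2 sets were not matched in brightness, with a median spot intensity of 7150 for the 42 members and 1950 for all genes.

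With all 8 arrays the groups did not overlap for 3 genes, Rps4x, Rpl22 and Rpl4, all lower, while 4.95% of all probes did not overlap (2.53% lower and 2.42% higher). Among 60 genes, 3 is 5.0%, near that background.

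Among small subunit genes, Rps4x, the X-linked member of the S4 family, had the largest difference and the smallest p of all 60 genes. It gave 12.97, 12.81, 12.90 and 12.98 in WT and 12.60, 12.66, 12.69 and 12.58 in Cav3.1 KO. Every WT array lay above every Cav3.1 KO array, WT replicate 2 included. The means were 12.91 ± 0.0806 (SD, n = 4) and 12.63 ± 0.0502 (SD, n = 4), a difference of -0.28 (SE 0.0456, 95% interval -0.388 to -0.178), or -17.8% in normalised intensity. It did not pass, with a limma adjusted p of 0.0681 and 0.0337 to 0.636 over 23 alternative settings. It passed in 2 of these, both without WT replicate 2. The difference was -0.33 with median scaling and -0.36 in the value table. Its autosomal paralog Rps4l gave 8.75, 8.60, 8.86 and 8.97 in WT and 9.10, 8.99, 8.66 and 9.26 in Cav3.1 KO, so the groups overlapped, and the difference of 0.21 (SE 0.128) had a limma adjusted p of 0.816 (0.507 to 0.988 over the alternatives). Whether either probe also detects the other gene was not tested.

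Rpsa, which is also known as a laminin receptor, gave 8.12, 7.67, 8.12 and 8.11 in WT and 7.92, 7.90, 7.75 and 7.86 in Cav3.1 KO. WT replicate 2 was the lowest and the other WT arrays were the 3 highest. The difference was -0.15 (SE 0.103, limma adjusted p 0.864) with all arrays and -0.26 (SE 0.044, limma adjusted p 0.0939, the lowest of its alternatives, which reached 1.0) without WT replicate 2. Rps19, the gene most often mutated in Diamond-Blackfan anaemia, showed the same arrangement with a dim probe, at 6.82, 6.61, 6.82 and 6.88 in WT and 6.65, 6.69, 6.69 and 6.69 in Cav3.1 KO, and the means differed by -0.10. The differences of Rps26, a protein at the mRNA exit channel, and of Rps21 were -0.10 each. Rps28 gave 13.60, 13.07, 13.53 and 13.45 in WT and 13.39, 13.10, 13.20 and 13.25 in Cav3.1 KO, and the means differed by -0.17 (SE 0.116). The second probe of Rps28 was low on WT replicate 2 too (13.14, 12.69, 13.27 and 13.19), but its difference was -0.02 (SE 0.115, limma adjusted p 0.997, 0.0496 to 1.0 over the alternatives), and the intervals of both probes (-0.441 to 0.0914 and -0.284 to 0.245) overlapped.

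Rps6, the target of S6 kinase downstream of mTORC1, gave 12.94, 12.78, 12.93 and 12.82 in WT and 12.85, 12.58, 12.92 and 12.73 in Cav3.1 KO. The groups overlapped, and the difference was -0.10 (SE 0.075, limma adjusted p 0.901, 0.431 to 1.0 over the alternatives). Of the small subunit genes with higher means in Cav3.1 KO, Fau, which encodes a ubiquitin-like protein fused to a ribosomal protein, gave 12.81, 12.25, 12.64 and 12.76 on the WT arrays and 12.63 to 12.70 on the Cav3.1 KO arrays. Its difference was 0.04 with all arrays and -0.08 without WT replicate 2. Rps14, whose human counterpart is lost in the 5q- syndrome, gave 13.78, 13.15, 13.87 and 13.61 in WT against 13.76, 13.45, 13.74 and 13.71. Its difference turned likewise, from 0.06 to -0.09. Rps20 had a dim probe with little spread, with WT arrays at 6.31 to 6.36 and Cav3.1 KO arrays at 6.30 to 6.39, and its difference was 0.02 with all arrays and 0.03 without WT replicate 2.

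Among large subunit genes, Rpl22 was steady within groups. It gave 8.82, 8.78, 8.82 and 8.82 in WT and 8.76, 8.58, 8.64 and 8.62 in Cav3.1 KO, without overlap. The means were 8.81 ± 0.022 (SD, n = 4) and 8.65 ± 0.078 (SD, n = 4), a difference of -0.16 (SE 0.0403, 95% interval -0.251 to -0.0651) with a limma adjusted p of 0.249 (0.0705 to 0.869 over the alternatives). Its close paralog Rpl22l1, also named outside the rule, gave 12.18, 11.79, 12.14 and 12.20 on the WT arrays and 11.95 to 12.22 on the Cav3.1 KO arrays, and the means differed by 0.03 (SE 0.098).

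Rpl4, which reaches into the exit tunnel, gave 12.79, 12.76, 12.84 and 12.85 in WT and 12.60, 12.76, 12.76 and 12.56 in Cav3.1 KO. The closest arrays of the groups shared the same value to 2 decimals, and the difference was -0.14 (SE 0.0511, limma adjusted p 0.502, 0.187 to 0.884 over the alternatives). Rpl7a, whose introns carry small nucleolar RNAs, gave 12.40, 12.28, 12.31 and 12.42 in WT and 12.22, 12.20, 12.14 and 12.28 in Cav3.1 KO. The groups touched at 12.28, and the difference was -0.14 (SE 0.0429, limma adjusted p 0.377, 0.0673 to 0.866 over the alternatives). Rpl21, a dim probe, differed by -0.09 (SE 0.0345).

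Rpl23, which with Rpl5 and Rpl11 can bind the p53 regulator Mdm2, gave 9.31, 8.94, 9.26 and 9.30 in WT and 8.82, 9.11, 8.92 and 8.90 in Cav3.1 KO. WT replicate 2 lay among the Cav3.1 KO arrays. The difference was -0.26 (SE 0.0936, limma adjusted p 0.468) with all arrays and -0.35 (SE 0.0654, limma adjusted p 0.108, the lowest of its alternatives, which reached 0.865) without WT replicate 2. Its partners Rpl5 and Rpl11, named for this role and not by the naming rule, differed by -0.03 (SE 0.0853) and 0.05 (SE 0.0866). Rpl30 gave 8.32, 7.76, 8.21 and 8.25 in WT and 7.86, 7.97, 7.89 and 7.99 in Cav3.1 KO. WT replicate 2 was the lowest of all arrays, so the difference was -0.21 (SE 0.115, limma adjusted p 0.748) with it and -0.34 (SE 0.0439) without it. Rpl30 was named after its values were seen, and its limma adjusted p ran from 0.0468 to 0.970 over the alternatives.

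**Figure D4:**
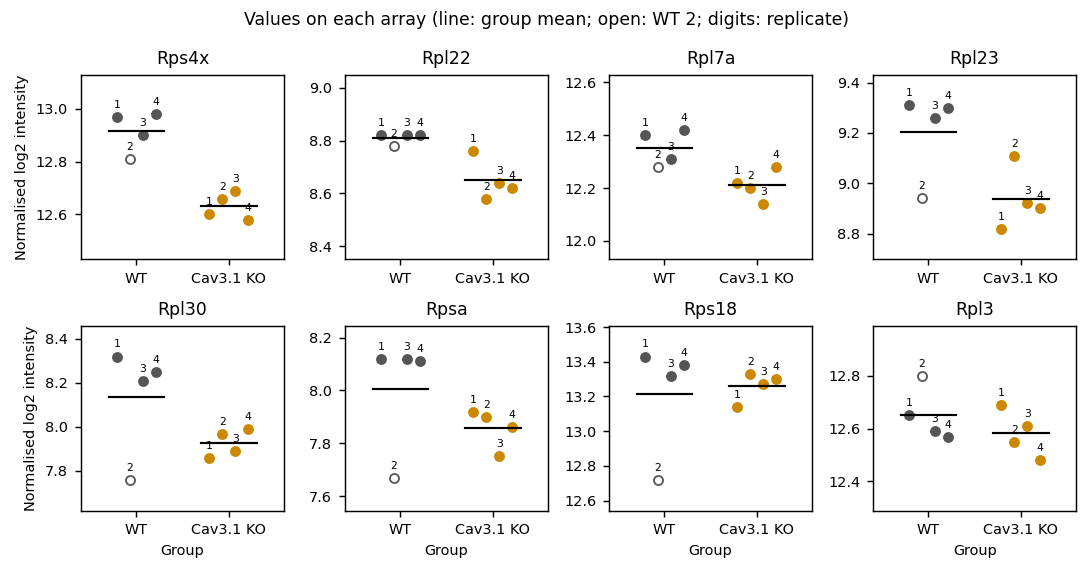
Normalised log2 intensity (vertical axis) of 8 genes on each array of WT (grey) and Cav3.1 KO (orange); digits give the replicate, the open point is WT replicate 2 and the line is the mean of 4 arrays. Rps4x separates the groups with all arrays (12.81 and above in WT, 12.69 and below in Cav3.1 KO), Rpl30 and Rpsa separate them apart from WT replicate 2, and Rps18 and Rpl3 do not.

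Of the large subunit genes with higher means in Cav3.1 KO, Rpl41, the shortest ribosomal protein, gave 14.17, 13.87, 14.17 and 14.17 in WT and 14.44, 14.13, 14.13 and 14.06 in Cav3.1 KO. The difference was 0.09 (SE 0.0992) with all arrays and 0.02 without WT replicate 2. Rpl8 differed by 0.08 and 0.02, and Rpl10, which takes part in the joining of the subunits, by 0.07 and -0.0038. The limma adjusted p of these genes was 0.933 to 0.959 with all arrays and 0.552 to 1.0 over the alternatives.

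The spread within groups was uneven. Rpl36a gave 12.03, 11.77, 12.24 and 12.07 in WT and 12.37, 11.58, 11.53 and 11.98 in Cav3.1 KO, and its pooled SD of 0.307 was the largest of the 60. Rpl28 followed with 0.291, as Cav3.1 KO replicate 1 gave 9.64 against 8.78 to 9.02 on the other Cav3.1 KO arrays, and then Rps27 with 0.273. At the other end, Rps20 had a pooled SD of 0.0374. The median over the 60 genes was 0.143, beside 0.0683 over all probes, most of which are dim. The 42 genes above 1000 in mean spot intensity had a median of 0.149, close to the 0.140 of all probes above 1000, a set with a lower median intensity. The brightest probes were those of Rpl41, Rps29 and Rpl9, and their means differed between the groups by 0.09, 0.01 and 0.0048. The dimmest were those of Rpl37, Rps20 and Rps24, with differences of -0.02, 0.02 and -0.06. The dimmer second probe of Rpl9 gave 8.19, 8.37, 8.43 and 8.16 in WT, with no low value on WT replicate 2, where the brighter probe gave 14.03, 13.61, 14.13 and 13.98.

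The genes that build, load and control ribosomes were read from lists, chosen with earlier results of these data known, and 0 of their members passed the limma test. An unadjusted limma p under 0.05 was reached by 5 ribosome biogenesis genes, 3 of mTORC1 and TOP control, 4 mitochondrial ribosomal protein genes and 1 pseudogene-named probe, and by 0 of the TOP transcripts, paralogs and snoRNA hosts, where the share of all probes was 8.1%. Of 29 tested ribosome biogenesis genes, 24 had a lower mean in Cav3.1 KO. Their median was -0.0695, and 4 did not overlap between the groups, all lower (2.53% of all probes were lower without overlap, and 4.95% did not overlap in either direction). Nucleolin (Ncl), an abundant nucleolar protein, gave 10.11, 10.35, 10.11 and 10.13 in WT and 9.86, 10.06, 10.04 and 9.98 in Cav3.1 KO. All WT arrays were above all Cav3.1 KO arrays, and the difference of -0.19 (SE 0.0663) had a limma adjusted p of 0.471 (0.259 to 0.856 over the alternatives). Rrp9, which binds the U3 small nucleolar RNA, differed by -0.13 (limma adjusted p 0.267, 0.25 to 0.777 over the alternatives) and Bop1, a large subunit assembly factor, by -0.11 (limma adjusted p 0.436, 0.331 to 0.912 over the alternatives). WT replicate 2 was the lowest of 8 arrays for 1 of the 29 genes.

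Of the 19 translation factors and other TOP transcripts, 9 were lower, with a median of 0.0224. Nap1l1, a histone chaperone with a TOP mRNA, differed by 0.22, and the initiation factor subunits Eif3k and Eif3m by -0.13 and -0.10. Of 15 tested genes of mTORC1 and TOP control, 9 were lower. Akt1s1, an inhibitory partner of mTORC1, differed by -0.12 and Rps6kb2, an S6 kinase, by -0.06, both without overlap, as were 4.95% of all probes. Ddit4, a stress-induced inhibitor of mTORC1, gave 7.97, 7.12, 8.15 and 7.40 in WT and 8.19, 8.05, 8.50 and 8.64 in Cav3.1 KO. The groups overlapped at 1 WT array, and its difference of 0.68 (SE 0.239) had a limma adjusted p of 0.459 (0.330 to 0.927 over the alternatives). Larp1, named here for its role at TOP mRNAs, differed by -0.13 (SE 0.0818).

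Of 7 tested ribosomal protein paralogs, 3 were lower, with a median of 0.0251, and Rpl10l and Rpl7l1 differed by 0.03 and -0.05. Among 78 mitochondrial ribosomal protein genes, which are translated in the cytosol and serve the separate mitochondrial ribosome, 47 were lower, with a median of -0.0182. Mrps18b differed by -0.19 (limma adjusted p 0.211, 0.170 to 0.653 over the alternatives), Mrps15 by 0.19 and Mrps26 by -0.11. Rps19bp1 gave 9.17, 9.06, 9.17 and 9.18 on the WT arrays and 9.02 to 9.06 on the Cav3.1 KO arrays, and the means differed by -0.11 (SE 0.0319, limma adjusted p 0.300, 0.0961 to 0.815 over the alternatives).

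Some cell type and technical measures differed between the groups, not all in the direction of the ribosomal proteins. All 10 tested microglia markers were lower in Cav3.1 KO, and their list mean was 8.03 to 8.25 on the WT arrays, lowest on replicate 2, against 7.98 to 8.11 on the Cav3.1 KO arrays. Oligodendrocyte markers were lower for 8 of 9, with a list mean of 10.05 to 10.33 on the WT arrays against 9.78 to 10.44 on the others. Thalamus and habenula markers went the other way, higher in Cav3.1 KO for 8 of 9. Their list mean was 6.94 to 7.57 on the WT arrays against 7.13 to 8.36 on the Cav3.1 KO arrays. It was highest on Cav3.1 KO replicates 2 and 3. Mature granule neuron markers were lower for 8 of 12. Of the 12, 5 did not overlap between the groups (4.95% of all probes), 4 lower and 1 higher (2.53% and 2.42% of all probes). C1ql2 was called lower (-0.57, limma adjusted p 0.0065, 0.00371 to 0.437 over the alternatives). CA field markers were lower for 8 of 10, with a list mean of 7.76 to 7.88 on the WT arrays against 7.65 to 7.85 on the Cav3.1 KO arrays, and Bok was called lower (-0.65, limma adjusted p 0.0065, 0.00241 to 0.612 over the alternatives). Astrocyte markers were lower for 3 of 10, with 1 called higher. Endothelial and pericyte markers were lower for 6 of 12, with 1 called lower, where 0.288% of all probes were called. Lower were also 7 of 10 meningeal fibroblast, 8 of 8 choroid plexus, 4 of 8 ependymal and 3 of 3 erythrocyte markers tested. The part of these cells in the ribosomal protein differences was not tested. The slope between scan gains, per the file headers, split the arrays into a steeper class of WT replicates 1, 2 and 4 with Cav3.1 KO replicate 1 and a shallower class of the other 4. Within the steeper class 29 of 60 genes were lower in Cav3.1 KO (median 0.01), beside 50.8% of all probes. Within the shallower class it was 55 of 60 (median -0.126), beside 49.6% of all probes. Each of these rests on a group of 1 array, Cav3.1 KO replicate 1 in the steeper and WT replicate 3 in the shallower class, so it is a comparison of single arrays with 3 others. The steeper class holds WT replicate 2. With the gain class as a block, 43 of 60 were lower (median -0.0463), and without WT replicate 2 as well, 51 of 60 (median -0.111). The shares of all probes lower were 50.5% and 50.7%.

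**Figure D5:**
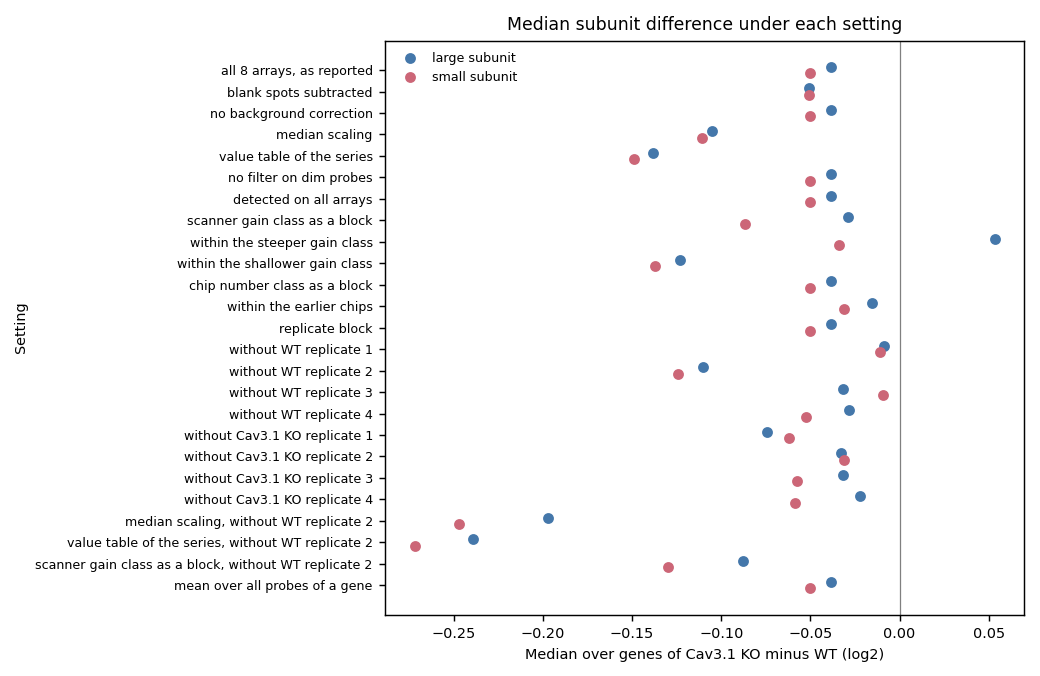
Median over genes of the difference Cav3.1 KO minus WT (log2, horizontal axis) for the large (blue) and small (red) subunit under each treatment of the data (vertical axis). The medians lie at -0.04 and -0.05 with all arrays, move to -0.110 and -0.124 without WT replicate 2, and the large subunit median lies above 0 within the steeper gain class.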

How the data were processed

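RNA from 4 WT and 4 Cav3.1 KO samples of the dorsal dentate gyrus was hybridised to 8 arrays in a single colour and grouped by the genotype in the labels. The deposited scanner files give, per the file headers, a median 635 nm spot intensity without normalisation, merged from 3 scan gains. The way of merging and the scanner are not given in the sources used here. The authors' deposited value table gives each probe as a linear intensity, close to a blank-subtracted value scaled to a median of 25 on each array, with its normalisation not named there. No local background was used, so normexp (offset 50) was fitted to the spot intensities alone, and probes were quantile normalised with limma 3.58.1 in R 4.3.3. The offset understates differences of dim probes. Of 23473 probes, 2239 not above the 95th percentile of blank spots on at least 4 arrays were left out, and 84 more with a bad flag at any gain, leaving 21150 for lmFit and eBayes on group means with Benjamini-Hochberg adjustment. The number of arrays limits the precision. On simulated data for this comparison with 21150 probes, 165 of 200 changed probes were recovered, with 4 false calls. The 165 recovered probes are not split by size of difference here. The count thus does not give the recovery for differences as small as those of the ribosomal protein genes (-0.283 to 0.117). The median pooled SD of these genes was 0.143, beside 0.0683 over all probes.

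Members and lists were chosen with earlier results of these data known, and they are described by counts and medians. The named genes were, in each subunit, the 5 lower and 3 higher with the smallest p, the 3 brightest, 3 dimmest and 3 most variable members, Rpsa, Fau and Rps6, and up to 3 genes of each comparison list. Names outside this rule are marked as such in the text. The name-ending part of the rule was read on what follows Rpl or Rps. Alternatives were other background corrections, scalings, filters, blocks and omitted arrays. RefSeq symbols matched for all 61 genes.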

Additional observations from a re-analysis of the deposited data

Results flagged for a closer look

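Among 4 arrays of a group, a sample was singled out if its distance to the nearest other, as a share of the group's range, exceeded Dixon's critical value at 95%, which chance does for about 1 in 20 groups. By this measure WT replicate 2 lay far below the other WT arrays in the median deviation of the ribosomal proteins (-0.211), of the large subunit (-0.225) and of the small subunit (-0.198). Among the genes of the naming rule and Rps19bp1, those with WT replicate 2 below the other WT arrays by this measure, which is relative to the range, were Rpl22 (8.78, with the other WT arrays all at 8.82), Rpl23 (8.94), Rpl41 (13.87), Rpsa (7.67) and Rps19bp1 (9.06). Over all 60 ribosomal protein genes, 13 (21.7%) had such a WT array, and in all 13 it was WT replicate 2 on the low side, against 6.45% of all probes with any such WT array. In the Cav3.1 KO group Rps19 was apart on replicate 1 (6.65) and Rps14 on replicate 2 (13.45). Over the 60 genes, 4 (6.67%) had such a Cav3.1 KO array, against 6.07% of all probes.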

How the results depend on the processing

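No ribosomal protein gene was called under the listed alternatives except without WT replicate 2 (2 genes), and, among alternatives added after seeing the data, with median scaling and without that array (1 gene). The number lower in Cav3.1 KO was 29 within the steeper gain class (50.8% of all probes), where the lone Cav3.1 KO array is assumed to vary like WT. Added alternatives without WT replicate 2 moved the large subunit median difference to -0.197 with median scaling and -0.239 in the value table, and the small subunit median difference to -0.247 and -0.272. Leaving out each array in turn gave 0 to 2 genes called and 34 to 55 lower, beside 50.2% to 51.5% of all probes lower. The medians were -0.110 to -0.00869 (large) and -0.124 to -0.00937 (small), and 16 to 49 of all probes were called.

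The count of 61 among all probes was 40 with median scaling, 31 in the value table, 23 with the gain class as a block, 0 within each gain class, 7 within the earlier chips (an added alternative), 6 in the value table and 12 with the gain block when WT replicate 2 was left out as well. It was 37, 26 and 16 without WT replicates 1, 3 and 4, and 29, 33 and 34 without Cav3.1 KO replicates 2, 3 and 4. The cause was not tested. By chip number, the earlier chips were all arrays but WT replicate 3 and Cav3.1 KO replicate 4. Within them 36 of 60 ribosomal protein genes were lower in Cav3.1 KO (median -0.0184), beside 51.1% of all probes. With the chip class as a block it was 44 of 60, beside 50.7%. With replicate number as a block, 8 of all probes and 0 ribosomal protein genes were called. Same-numbered arrays had correlations of their deviations of -0.115 to 0.0109, so no effect shared by number was seen. These values cannot show whether same-numbered samples were collected or processed together. For genes the naming rule gave, 1010 values kept their side of the threshold and 2, both for Rps4x, did not. Outside it, Rpl30 and the second probe of Rps28 passed under 1 alternative each. The number of arrays limits the precision, and 9 ribosomal protein genes had a mean spot intensity under 200, close to the blank spots.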
